A study of Mus musculus with 48 samples.

Results

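Genes that mark tuft cells were followed in 48 libraries of sorted enteroendocrine cells (EECs) from the mouse intestine. The 9 genes, Dclk1, Trpm5, Pou2f3, Il25, Gnat3, Avil, Alox5ap, Ptgs1 and Sh2d6, were chosen by name from the 53465 genes in the count table. Of these, 7 passed the filter on low counts, which left 15126 genes to test, whereas Il25 and Gnat3 did not pass it. The cells came from lean male C57BL6 adults carrying Neurod1-cre and an EYFP reporter, which marks cells in which the Neurod1 promoter has driven Cre, and EYFP-positive cells without surface CD45 were collected. All mice carried both alleles, and no EYFP-negative cells were analysed here.

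The mice had undergone vertical sleeve gastrectomy (VSG), in which about 70% of the stomach was removed, or a sham operation in which the stomach was sutured without pressure. Sham mice either ate ad libitum or were weight-matched to the VSG mice by restricted feeding, and the VSG mice additionally received vitamin B12. All mice were fed liquid diet around surgery and chow otherwise, and were gavaged with glucose after a fast shortly before tissue was taken. Duodenum stands for the first 5 cm of the small intestine, ileum for its last 15 cm and colon for the whole large intestine. For each of these there were 6 libraries from VSG mice and 5 from either sham group, 1 per mouse, and 15 of the 17 mice gave all 3.

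Tuft cells are rare chemosensory cells of the gut epithelium that carry parts of the taste transduction cascade. Their identity depends on the transcription factor Pou2f3. They sense luminal succinate and other signals of parasites and microbes through G proteins and the cation channel Trpm5, release the cytokine Il25 towards type 2 innate lymphoid cells, and make leukotrienes and prostaglandins. In mouse they are a lineage apart from EECs, but both arise from the same crypt stem cells.

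The median library held 6713018 counts (4648651 to 17182463). Levels are given as CPM, the counts of a gene per 1000000 counts of its library after scaling by edgeR's TMM factors. The label of the sort was checked first. Chga, a granule protein of EECs, had medians of 17620, 17260 and 19910 CPM in duodenum, ileum and colon. Ptprc, which encodes CD45, had medians of 1.26, 1.52 and 2.77 CPM in the same order. The duodenum library of sham weight-matched mouse 27 stood apart. Its 8 EEC marker genes summed to 11420 CPM, the lowest of 16 duodenal libraries, against a duodenal median of 54540 CPM. Its sums over marker genes of enterocytes (39020 CPM), goblet cells (5766 CPM), Paneth cells (3744 CPM) and lymphocytes (46.1 CPM) were the highest of the 16. Values without this library are given beside the results that it changes most. For mouse 12, a code in the labels of the ileum and colon libraries goes against their tissue labels. The enterocyte genes of its colon library summed to 438.3 CPM, within the colonic range of 235.9 to 610.3 CPM, and the tissue label was used.

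The windows around the transcription start of 3 of the genes are shown because Avil and Gnat3 differed between regions in opposite directions and held a motif searched for, and because Trpm5 was one of the pair of genes that moved most closely together. They run from 250 bases before to 50 bases after the start and were taken from RefSeq on GRCm38.p6, in the direction of the gene. Capitals mark ATGCAAA in Avil and CAGATG in Gnat3, on either strand, and the window of Trpm5 held neither.
Avil, chr10:127000459-127000758, plus strand: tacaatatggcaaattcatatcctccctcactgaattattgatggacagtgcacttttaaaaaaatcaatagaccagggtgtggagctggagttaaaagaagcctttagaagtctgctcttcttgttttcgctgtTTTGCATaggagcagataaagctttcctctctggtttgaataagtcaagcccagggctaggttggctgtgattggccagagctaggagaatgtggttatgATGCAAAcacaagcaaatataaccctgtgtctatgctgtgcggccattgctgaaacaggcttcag
Gnat3, chr5:17962320-17962619, plus strand: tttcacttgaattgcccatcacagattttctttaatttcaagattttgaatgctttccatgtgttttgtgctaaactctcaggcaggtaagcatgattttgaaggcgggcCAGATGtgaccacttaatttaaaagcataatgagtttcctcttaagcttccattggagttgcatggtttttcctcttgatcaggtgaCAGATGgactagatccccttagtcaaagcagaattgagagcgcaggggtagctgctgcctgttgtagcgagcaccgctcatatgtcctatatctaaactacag
Trpm5, chr7:143094593-143094892, minus strand: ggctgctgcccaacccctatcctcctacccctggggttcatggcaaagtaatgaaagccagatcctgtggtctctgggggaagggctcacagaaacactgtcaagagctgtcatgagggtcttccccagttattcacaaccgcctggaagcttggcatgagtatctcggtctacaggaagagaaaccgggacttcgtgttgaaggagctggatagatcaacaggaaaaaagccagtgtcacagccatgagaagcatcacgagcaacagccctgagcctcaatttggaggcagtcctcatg

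RefSeq windows were matched for 6 of the 9 genes, 7 windows in all, since Dclk1 had a window at chr3:55242114-55242413 and another at chr3:55461478-55461777. Pou2f3, Il25 and Alox5ap had no entry. The octamer ATGCAAAT, the sequence bound by POU factors, was in none of the 7 windows on either strand and in 1.74% of 32851 windows of this length genome-wide. Its first 7 letters, ATGCAAA, were in 1 of the 7 windows, that of Avil, where they began 115 and 15 bases before the start on opposite strands, and in 4.63% of all windows. The E-box CAGATG, a sequence that Neurod1 can bind, was in 1 of the 7 windows, that of Gnat3, at 2 places on the strand of the gene, and in 17.2% of all windows. Beside a share of 1.74%, 7 windows are too few to show a lack of the octamer. Of the 34 other tuft genes listed further below, 29 had a window. The octamer was found for 5 of these genes, its first 7 letters for 6 and the E-box for 8, counted per gene and not per window. These are matches of letters only.

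The levels were low beside those of the EEC genes. Dclk1, a microtubule-associated kinase used as the standard tuft cell marker (chr3:55242364-55539068), was detected in 48 of 48 libraries. Its level was 1.98 to 28.8 CPM in the duodenum with a median of 5.71, 1.74 to 23.7 CPM in the ileum with a median of 7.78, and 3.78 to 28.5 CPM in the colon with a median of 16.7. The regions overlapped, but 13 of 15 mice had more Dclk1 in the colon than in their own duodenum. Trpm5, the channel that depolarizes tuft and taste cells (chr7:143069153-143094642), had medians of 4.403 CPM (1.80 to 21.97) in the duodenum, 7.68 CPM (1.28 to 12.8) in the ileum and 10.3 CPM (1.77 to 15.9) in the colon. It was higher in the colon than in the duodenum of the same mouse in 12 of 15 mice. For both genes the highest duodenal library was that of mouse 27, at 28.8 and 21.97 CPM, while the next highest sham weight-matched duodenum had 6.32 and 4.996 CPM.

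Pou2f3 (chr9:43123939-43210369) had a median of 0.654 CPM in the duodenum (0 to 2.80), with 3 of 16 libraries at 0 counts, 1.69 CPM in the ileum (0.237 to 3.55) and 1.71 CPM in the colon (0.210 to 5.18). A count of 0 in a library allows a level of up to 3 counts of its total, by counting error alone. Sh2d6, an adaptor with an SH2 domain (chr6:72513641-72521707), had medians of 0.596, 1.26 and 1.45 CPM in duodenum, ileum and colon, and 0 counts in 3, 2 and 0 of 16 libraries. The highest values of Sh2d6 were 4.05, 4.97 and 5.24 CPM in the same order, so that the regions overlapped almost fully.

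Gnat3, the taste G protein subunit gustducin (chr5:17962549-18019834), was the gene whose regions were most nearly apart. It had at least 1 count in 16 of 16 colon libraries, in 7 of 16 ileum libraries and in 5 of 16 duodenum libraries. Its counts summed to 97 in the colon, 20 in the ileum and 8 in the duodenum, and its level ran from 0.192 to 1.83 CPM in the colon, up to 0.698 CPM in the ileum and up to 0.294 CPM in the duodenum. The colon exceeded the duodenum in 15 of 15 mice and the ileum in 14 of 16. Gnat3 did not pass the filter on low counts. When every gene with a count was kept, edgeR gave a log2 fold change of 3.72 (SE 0.698, adjusted p = 3.79e-06) for colon versus duodenum and 2.41 (SE 0.663, adjusted p = 0.00295) for colon versus ileum. Among the 4 colon and 8 ileum libraries that shared the second library index D503, its mean was 0.818 CPM in the colon and 0.183 CPM in the ileum.

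Il25, the cytokine of the tuft cell circuit with innate lymphoid cells (chr14:54932695-54935837), had 7 counts in all 48 libraries together. Duodenum, ileum and colon held 1, 2 and 4 of these, and 44 of the 48 libraries had none. No difference in Il25 was detectable at this depth.

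Avil, the actin-bundling protein advillin found in the apical tuft (chr10:127000709-127020994), went the other way. Its level was 4.07 to 16.5 CPM in the duodenum with a median of 13.2, 1.64 to 11.9 CPM in the ileum with a median of 6.86, and 1.77 to 12.6 CPM in the colon with a median of 5.66. It was lower in the ileum than in the duodenum of the same mouse in 14 of 15 mice, and its colonic level was below the duodenal one in 13 of 15.

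Alox5ap, the protein that presents arachidonate to 5-lipoxygenase (chr5:149264767-149288153), had medians of 1.32 CPM (0.365 to 4.05) in the duodenum, 2.22 CPM (0.564 to 7.18) in the ileum and 6.29 CPM (1.72 to 11.02) in the colon. The colon was higher than the duodenum in 13 of 15 mice and higher than the ileum in 13 of 16. Ptgs1, the constitutive cyclooxygenase (chr2:36230426-36252272), had medians of 0.485, 0.708 and 1.30 CPM in duodenum, ileum and colon, with 0 counts in 3, 3 and 0 of 16 libraries.

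**Figure D1:**
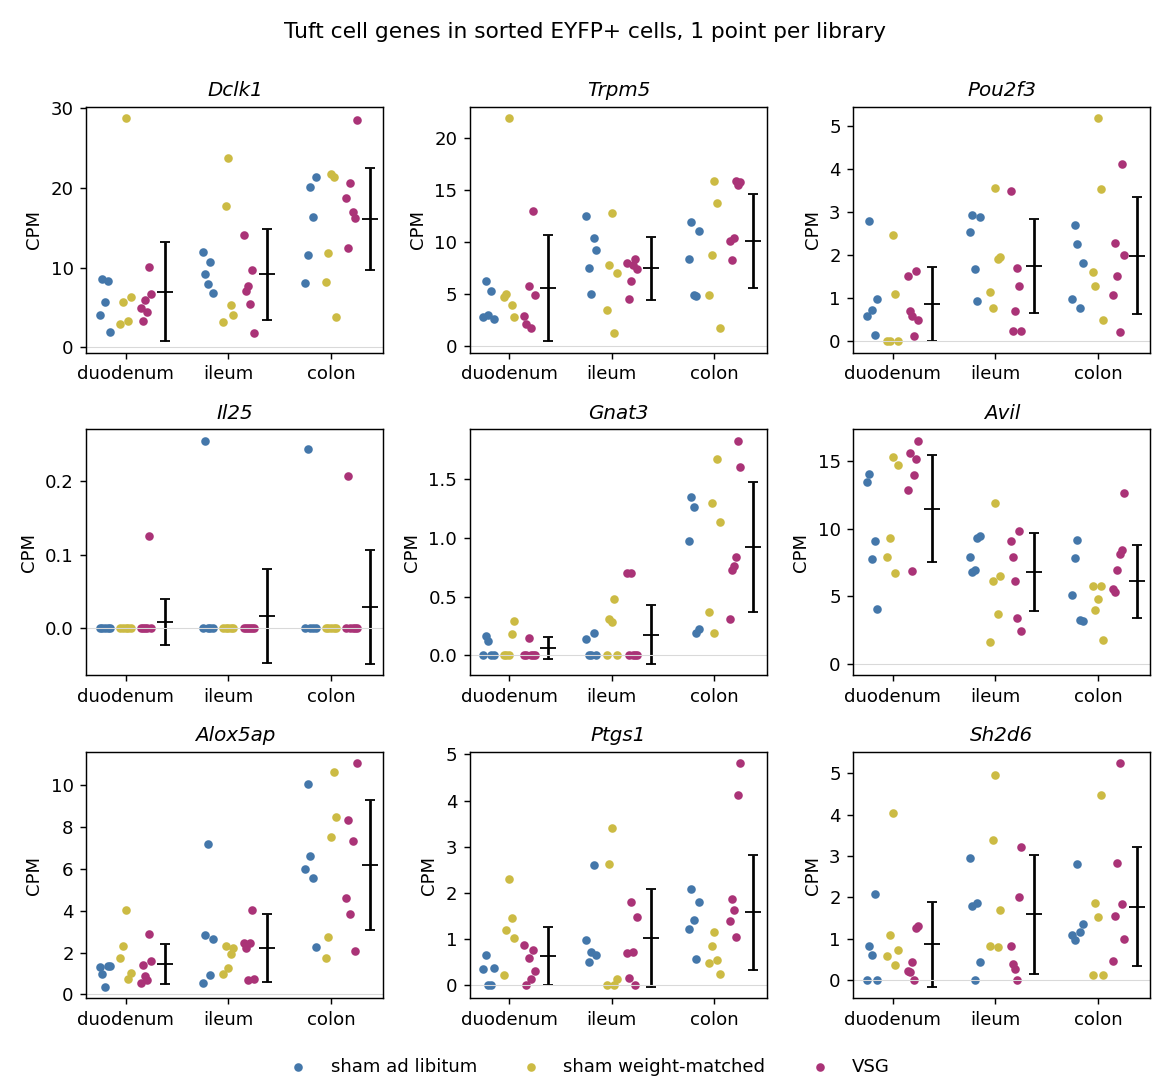
Level of each of the 9 tuft cell genes in every library, in CPM on a linear axis that differs between panels, by region and coloured by surgery group, with the mean and SD of the 16 libraries of a region in black. Avil lies highest in the duodenum, with a median of 13.2 CPM, Gnat3 and Alox5ap lie highest in the colon, with medians of 0.906 and 6.29 CPM, and Il25 is at 0 in 44 of 48 libraries.

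Per kilobase of annotated exon, which allows genes to be compared, the order in the duodenum was Avil (mean 3.38 CPM per kb), Alox5ap (1.02), Trpm5 (0.873), Sh2d6 (0.510), Dclk1 (0.454), Pou2f3 (0.282), Ptgs1 (0.165), Gnat3 (0.0419) and Il25 (0.00742). In the colon Alox5ap came first (4.34 CPM per kb), before Avil (1.80), Trpm5 (1.59), Dclk1 (1.05), Sh2d6 (1.05), Gnat3 (0.677), Pou2f3 (0.644), Ptgs1 (0.407) and Il25 (0.0266). Dclk1 and Sh2d6 were next to each other in both regions and differed by less than the spread over libraries, as did Gnat3 and Pou2f3 in the colon. The order in the duodenum was the same without mouse 27, where Dclk1 had a mean of 0.359 and Trpm5 of 0.702 CPM per kb. Dclk1 came lower in this order than by CPM, with annotated exons of 15296 bases. Small stretches of exon are shared with a gene on the other strand for Trpm5 (220 bases, with Tssc4), Avil (165 bases, with Tsfm), Alox5ap, Ptgs1 and Dclk1, and whether the counting used strand is not given in the sources used here, so reads in these stretches cannot be assigned with certainty.

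Regions were compared in one edgeR quasi-likelihood fit of 9 group means, averaging over the 3 surgery groups, with Benjamini-Hochberg adjusted p over all 15126 genes and a threshold of 0.05. Between colon and duodenum, 5 of 7 genes were higher in the colon and 1 was lower. The background was wide, since 55.0% of all genes tested passed in this comparison, 26.8% higher and 28.3% lower in the colon. Alox5ap had the largest log2 fold change, 2.11 (SE 0.312, adjusted p = 1.03e-07), followed by Ptgs1 at 1.23 (SE 0.487, adjusted p = 0.0295), Dclk1 at 1.19 (SE 0.294, adjusted p = 0.000603), Pou2f3 at 1.17 (SE 0.451, adjusted p = 0.0250) and Trpm5 at 0.85 (SE 0.284, adjusted p = 0.0104). Avil was lower in the colon, at -0.95 (SE 0.211, adjusted p = 0.000148). The call of Pou2f3 was lost without mouse 19 (1.04, adjusted p = 0.0577), and that of Ptgs1 without mouse 19, 21 or 30, with adjusted p from 0.0554 to 0.0605. Sh2d6, at 1.05 (SE 0.513), did not pass (adjusted p = 0.0789), although it did without the duodenum library of mouse 27 (1.37, adjusted p = 0.0214) and with the mouse as a random replicate block in limma voom (1.22, adjusted p = 0.0315). The median over the 7 genes was 1.17, beside -0.01 over all genes.

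Between ileum and duodenum, only Avil passed in the fit of 9 group means, lower in the ileum by a log2 fold change of -0.71 (SE 0.208, adjusted p = 0.00611), and 0 of 7 genes passed as higher. Over all genes 33.8% passed, 17.2% higher and 16.6% lower in the ileum. The other 6 genes had values from 0.43 for Dclk1 to 1.004 for Pou2f3 and did not pass. This count depended on single libraries and on the fit. Without the duodenum library of mouse 27, Dclk1 (0.78, adjusted p = 0.0180), Trpm5 (0.75, adjusted p = 0.0189) and Pou2f3 (1.52, adjusted p = 0.00700) passed as higher in the ileum, with Avil still lower, 4 genes in all. Leaving out mouse 13 let Pou2f3 pass as well (1.23, adjusted p = 0.0462). Pou2f3 also passed with the mouse as a random replicate block in limma voom (1.52, adjusted p = 0.00385) and as a fixed replicate block in edgeR (1.42, adjusted p = 0.0102), each of which called 2 genes, Pou2f3 and Avil.

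Between colon and ileum, 2 of 7 genes passed, both higher in the colon, beside 49.2% of all genes, 23.8% higher and 25.4% lower. They were Alox5ap, at 1.504 (SE 0.307, adjusted p = 5.12e-05), and Dclk1, at 0.76 (SE 0.293, adjusted p = 0.0277). The call of Dclk1 was lost without mouse 19 or 32 (both sham ad libitum), 29 (sham weight-matched) or 30 (VSG), with values of 0.63 to 0.71 and adjusted p from 0.0588 to 0.0804, and when every gene was kept (adjusted p = 0.0787). The replicate block in limma voom added Ptgs1 (1.04, adjusted p = 0.0373). Avil did not differ detectably between colon and ileum (-0.23, SE 0.214, adjusted p = 0.389).

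The second library index followed region in part, and this touches most of these differences. Duodenal libraries carried D501 (4) or D502 (12), ileal libraries D501 (7), D503 (8) or D504 (1), and colonic libraries D501 (1), D503 (4) or D504 (11). The only colon library with D501 and the only ileum library with D504 were those of mouse 12. All VSG duodenum libraries carried D502, and the only sham weight-matched duodenum library with D501 was that of mouse 27. A fit with this index as a covariate thus leans on few libraries, and it was not repeated without mouse 27. With the second index as a covariate, 1 of 7 genes remained past the threshold between colon and duodenum, Avil (-1.62, SE 0.463, adjusted p = 0.00616), and Avil also stayed lower in the ileum than in the duodenum (-1.17, SE 0.382, adjusted p = 0.0378). Alox5ap stayed higher in the colon than in the ileum (1.67, SE 0.403, adjusted p = 0.000731), but not than in the duodenum (1.32, SE 0.688, adjusted p = 0.152). Between colon and duodenum, Dclk1 (0.11, SE 0.631) and Ptgs1 (0.19, SE 1.59) had values near 0, and Trpm5 (-0.15, SE 0.591), Pou2f3 (-1.43, SE 0.895) and Sh2d6 (-0.77, SE 1.09) were negative without passing. For these 5 genes region and index cannot be told apart in the colon and duodenum libraries. Gnat3, which did not pass the filter, was not fitted with the covariate.

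Values within one index, given without a test, were as follows. With D501, the 7 ileum libraries had a lower mean than the 4 duodenum libraries for Avil (6.31 and 11.7 CPM), Dclk1 (8.35 and 10.9 CPM), Trpm5 (7.11 and 8.42 CPM), Pou2f3 (1.20 and 1.71 CPM), Alox5ap (1.75 and 1.92 CPM) and Sh2d6 (1.03 and 1.22 CPM), and a higher mean for Ptgs1 (1.23 and 0.923 CPM). The duodenum library of mouse 27 was one of these 4, and without it the means of the other 3 were 4.88 CPM for Dclk1, 3.91 for Trpm5, 1.46 for Pou2f3, 10.5 for Avil, 1.21 for Alox5ap, 0.460 for Ptgs1 and 0.275 for Sh2d6. The ileum was then higher for all of these but Avil and Pou2f3. With D503, the 4 colon libraries had a higher mean than the 8 ileum libraries for Dclk1 (18.1 and 9.46 CPM), Alox5ap (6.59 and 2.83 CPM), Ptgs1 (2.07 and 0.869 CPM) and Trpm5 (9.72 and 7.20 CPM), and a lower one for Avil (5.78 and 7.16 CPM), Pou2f3 (1.35 and 2.13 CPM) and Sh2d6 (0.737 and 1.91 CPM).

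**Figure D2:**
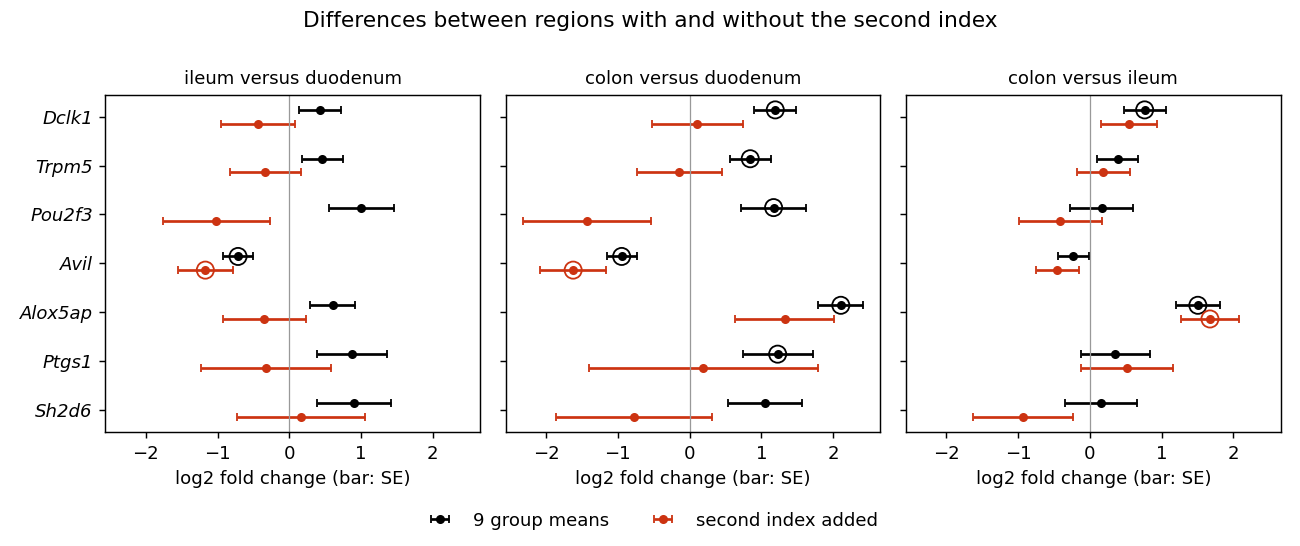
Log2 fold change between regions for the 7 tuft cell genes past the filter, with SE as bars, from the fit of 9 group means in black and with the second index as a covariate in red. Open circles mark adjusted p under 0.05. Avil keeps its place to the left of 0 in all 3 panels, and Alox5ap stays at 1.504 and 1.67 between colon and ileum, whereas Pou2f3 moves from 1.17 to -1.43 between colon and duodenum.

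These libraries are sums over many sorted cells, so that fewer cells holding a gene's RNA and less of it per cell cannot be told apart. Whether the RNA of the tuft cell genes came from tuft cells or from the EECs themselves was not tested. Other cell types also differed in level between regions, and their part in the differences above was not tested. Goblet cell genes, 6 of them, summed to 2535 to 5766 CPM in the duodenum and 2825 to 13720 CPM in the colon. Mast cells and macrophages also use Alox5ap and Ptgs1. Of 7 mast cell genes, Kit alone was above a mean of 1 CPM, with medians of 39.0 CPM in the duodenum and 124.1 CPM in the colon, so that the list summed to 26.3 to 58.9 CPM and 88.2 to 152.1 CPM. Of the other 6, Cma1 had 3 counts in the duodenum and 42 in the colon, Ms4a2 3 and 32, Cpa3 6 and 8, Mcpt1 12 and 1, Mcpt2 4 and 0, and Fcer1a 0 in both. The 6 macrophage genes summed to 1.46 to 10.2 CPM in the duodenum and 0.122 to 6.21 CPM in the colon, and the 6 lymphocyte genes to 1.41 to 46.1 CPM and 0.770 to 9.97 CPM. Neurod1 itself was below its duodenal level in the colon, by a log2 fold change of -1.35 (SE 0.147, adjusted p = 4.91e-11).

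A further 34 genes known from tuft cells were listed by role, and 24 passed the filter. Between colon and duodenum 9 were higher and 5 lower in the colon, with a median log2 fold change of 0.66, between ileum and duodenum 8 were higher and 3 lower in the ileum (median 0.24), and between colon and ileum 5 were higher and 4 lower in the colon (median 0.22). By role, the colon exceeded the duodenum for 2 of 4 taste transduction genes tested, 1 of 3 eicosanoid genes, 1 of 2 transcription factors, 0 of 3 cytokine circuit genes and 5 of 12 other signalling genes, and was lower for 0, 1, 0, 1 and 3 of them. Over all genes tested, 26.8% were higher and 28.3% lower for colon versus duodenum, 17.2% and 16.6% for ileum versus duodenum, and 23.8% and 25.4% for colon versus ileum. The counts of 5 and 4 of 24 between colon and ileum are under that background. These counts, the single values below and that of Neurod1 above are from the fit of 9 group means. That fit holds no second index and keeps the duodenum library of mouse 27. Whether they hold under the alternatives was not examined, so region and index are not separated for these genes.

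Among those of lowest p that were higher in the colon than in the duodenum were Hpgds, the prostaglandin D synthase of haematopoietic and tuft cells (2.35, SE 0.195), Runx1, a transcription factor (2.77, SE 0.254), and Vav1, a guanine nucleotide exchange factor (1.89, SE 0.190). Lower in the colon were Il4ra, a receptor subunit for Il4 and Il13 (-0.89, SE 0.0684), Ptgs2, the inducible cyclooxygenase (-5.16, SE 0.514), Cd24a (-1.06, SE 0.119) and Kctd12 (-0.97, SE 0.115). The highest adjusted p over all genes among these 7 was that of Kctd12, at 4.44e-10. Ptgs2 had a median of 4.92 CPM in the duodenum and 0 CPM in the colon. Vav1 (1.83), Hpgds (1.42), Sucnr1, the succinate receptor (3.42), and Runx1 (1.10) led the genes higher in the ileum than in the duodenum. Sucnr1 had 4 counts over all duodenum libraries, 45 in the ileum (median 0.116 CPM) and 98 in the colon. Its value is thus taken against a duodenal level near 0, and its size is uncertain. Cd24a (-1.15), Ptgs2 (-2.38) and Itpr3, an IP3 receptor (-0.41), were the genes lower in the ileum. Between colon and ileum, Runx1 (1.67), Hpgds (0.93) and Lrmp (1.51) were among the higher genes, and Il4ra (-1.004), Kctd12 (-1.35), Plcg2 (-0.97) and Ptgs2 (-2.78) the lower ones. Several of the listed genes were abundant here. Itpr3 had medians of 1402 CPM in the duodenum and 1051 CPM in the colon, and Cd24a of 677.4 and 320.0 CPM, far above the 9 genes, so the sum over the list follows those and not the rarer ones.

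Surgery was compared in the same fit. No tuft cell gene passed the threshold in any of the 12 comparisons between surgery groups, of which 3 averaged over the regions and 9 were within a region, in edgeR, in DESeq2 or in limma voom with the mouse as a replicate block. The background was as low. Between VSG and sham ad libitum mice, 0% of all genes passed over the mean of regions and 0% in each region. Between VSG and sham weight-matched mice the share was 0.245% over the mean of regions, and 0.225%, 0.0463% and 0.0595% in duodenum, ileum and colon. Between the sham groups it was 0.0529%, 0%, 0% and 0.0132% in the same order. The joint test of the surgery by region interaction called 0 of 7 tuft cell genes and 0% of all genes.

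An unadjusted p under 0.05 was reached in 4 of 84 tests over these comparisons, and for 1 gene, Ptgs1, in the interaction (edgeR unadjusted p = 0.0422, adjusted p = 1). That is 4.76% of the tests, beside 6.13% of the 181512 tests over all genes in the same comparisons and 4.90% of genes in the interaction, so the values that follow are a description and no sign of a difference. Avil accounted for 2 of the 4. Over the mean of regions its log2 fold change between VSG and sham weight-matched mice was 0.43 (SE 0.209, edgeR unadjusted p = 0.0469, adjusted p = 0.496), and in the colon 0.82 (SE 0.374, unadjusted p = 0.0336, adjusted p = 1). The 5 sham weight-matched colons had 1.77 to 5.79 CPM of Avil, with a median of 4.80, and the 6 VSG colons 5.31 to 12.6 CPM, with a median of 7.58, so that the groups overlapped. Sham ad libitum colons, at 3.17 to 9.14 CPM, lay across both.

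Ptgs1 accounted for the other two. In the colon it had 1.05 to 4.81 CPM after VSG, 0.252 to 1.15 CPM in sham weight-matched mice and 0.576 to 2.08 CPM in sham ad libitum mice, with a log2 fold change of VSG over sham weight-matched of 1.88 (SE 0.836, unadjusted p = 0.0287, adjusted p = 1). In the duodenum it had 0.234 to 2.31 CPM in sham weight-matched and 0 to 0.659 CPM in sham ad libitum mice, a value of 1.96 (SE 0.882, unadjusted p = 0.0313, adjusted p = 0.712). Of the 45 sham weight-matched counts 16 came from mouse 27, and without that library the value was 1.62 (SE 0.928, unadjusted p = 0.0869, adjusted p = 1). These rest on 21 to 89 counts of Ptgs1 per group in the colon and 18 to 45 in the duodenum. Duodenal Pou2f3 moved more without the duodenum library of mouse 27. Sham weight-matched over sham ad libitum went from -0.69 to -2.21 (SE 0.944, edgeR unadjusted p = 0.0234). VSG over sham weight-matched went from 0.33 to 1.85 (SE 0.936, edgeR unadjusted p = 0.0538). Neither passed the threshold. Of the 23 sham weight-matched duodenal counts of Pou2f3, 17 came from mouse 27, and 3 of the 5 libraries had 0.

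Over the mean of regions, the 7 genes had log2 fold changes of -0.34 to 0.27 between VSG and sham ad libitum mice, -0.64 to 0.43 between VSG and sham weight-matched mice and -0.22 to 0.58 between the sham groups, with medians of 0.02, -0.09 and 0.19. Their SEs were between 0.207 and 0.519. Differences within that error were not detectable with these libraries, and some beyond it were not either. Avil at 0.43 (SE 0.209) between VSG and sham weight-matched mice, for example, did not pass (edgeR adjusted p = 0.496). Dclk1 had medians of 5.72, 5.70 and 5.49 CPM in the duodenum of ad libitum sham, weight-matched sham and VSG mice, 9.21, 5.28 and 7.36 CPM in the ileum and 16.3, 11.8 and 17.9 CPM in the colon. Trpm5 had 3.04, 4.79 and 3.93 CPM, 9.29, 7.06 and 7.63 CPM, and 8.403, 8.78 and 13.01 CPM. The surgery groups overlapped in each region for both genes.

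**Figure D3:**
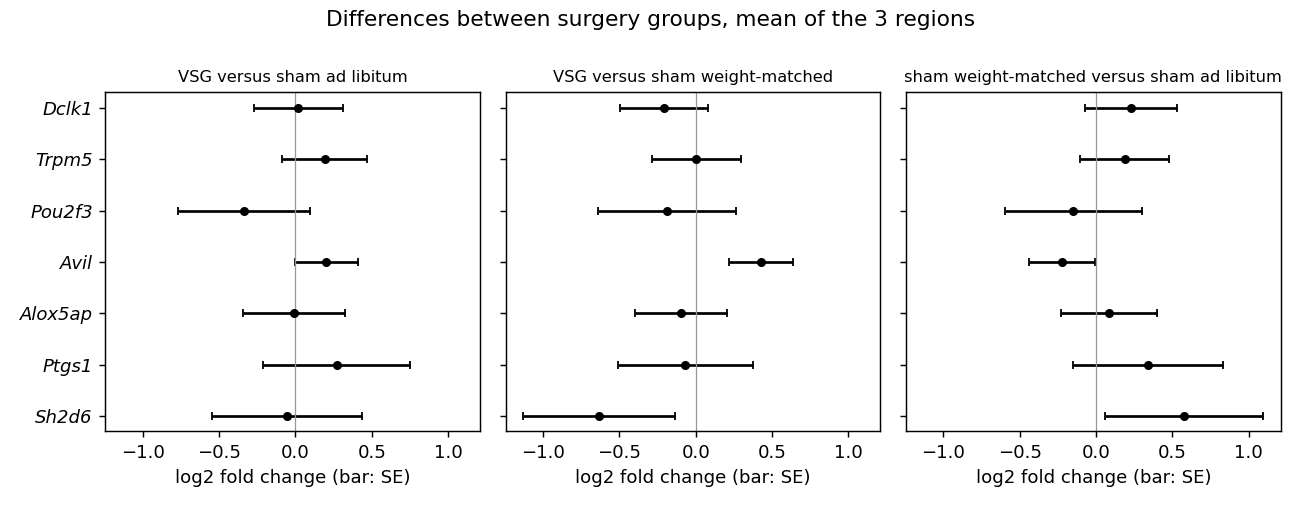
Log2 fold change between surgery groups for the 7 tuft cell genes past the filter, averaged over the 3 regions, with SE as bars. No gene passes the adjusted threshold, and the value farthest from 0 beside its SE is that of Avil between VSG and sham weight-matched mice, at 0.43.

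The genes also varied together between libraries of the same group. After removal of the 9 group means from log2 CPM (prior count of 2), the 21 pairs of the 7 genes had a median Pearson r of 0.330 over 48 libraries, from -0.157 to 0.659, and 20 of 21 were above 0. The closest pairs were Dclk1 with Trpm5 (r = 0.659), Trpm5 with Sh2d6 (0.651) and Dclk1 with Avil (0.639). Avil, opposite to the others between regions, was thus on their side within groups, with r of 0.401 to Trpm5 and 0.308 to Pou2f3. Alox5ap stood most apart, with r from -0.157 to Ptgs1 to 0.222 to Avil. The libraries had the same input of 2 ng of RNA but differed in depth, and the part of depth in these correlations was not tested. No test was made of the correlations themselves.

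The genes whose residual level was most like the mean of the 7 were, in order, Sh2d7 (r = 0.746), Siglecf (0.728), Rgs13 (0.706), Fyb (0.704), Grn (0.684), Spib (0.670), Nemp1 (0.654), Inpp5d (0.653), Sft2d2 (0.643) and Lrmp (0.633), of 15119 genes compared over 48 libraries. Of these 10, Siglecf, Rgs13, Fyb, Spib, Inpp5d and Lrmp were among the 24 other tuft genes compared. Siglecf encodes a sialic acid receptor also found on eosinophils, Rgs13 a regulator of G protein signalling, Fyb an adaptor, Spib an Ets factor and Inpp5d the phosphatase SHIP1, all with uses in immune cells as well. Without the duodenum library of mouse 27, 7 of the 10 stayed among the 10 and Sh2d7 was still first (r = 0.729). Ptprc had an r of 0.377.

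The mean residual of all 24 other tuft genes followed that of the 7 genes with r = 0.888 (Spearman's coefficient 0.877), and with 0.945, 0.893 and 0.832 within duodenum, ileum and colon (16 libraries each). In the duodenum r was 0.912 without mouse 27. Without the duodenum and ileum libraries of mouse 27, the farthest from the median, r was 0.849. The 8 EEC marker genes went the other way, with r = -0.523 (Spearman's coefficient -0.397), and -0.354 without those libraries. Within duodenum, ileum and colon r was -0.732, -0.494 and -0.260, and in the duodenum it was -0.411 without mouse 27 (15 libraries). Goblet (0.3802), Paneth (0.373), lymphocyte (0.421), colonocyte (0.302) and crypt (0.204) genes had positive r to the 7 genes. Enterocyte genes had an r of 0.0913, macrophage genes (2 tested) of 0.0895 and mast cell genes (1 tested, Kit) of -0.1515. The part of these cell types in the shared variation was not tested. Among the 24 other tuft genes, r to the 7 genes was uneven by role. It was 0.8815 for 12 other signalling genes, 0.587 for 2 transcription factors and 0.503 for 3 cytokine circuit genes. It was only 0.258 for 3 eicosanoid genes and 0.159 for 4 taste transduction genes. Itpr3 (-0.4125), Kctd12 (-0.4148), Cd24a (-0.3665), Ptgs2 (-0.214) and Hpgds (-0.112) were among the single genes with a negative r.

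**Figure D4:**
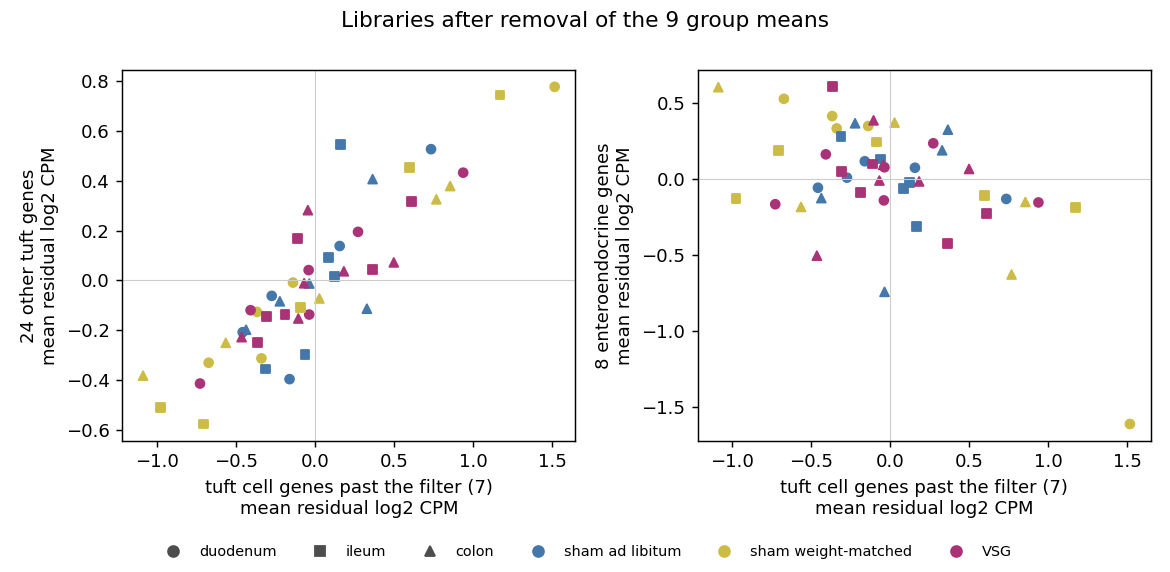
Each point is 1 of 48 libraries, by the mean residual log2 CPM of the 7 tuft cell genes past the filter (x axis) and that of 24 other tuft genes (left) or 8 EEC genes (right), with region by shape and surgery by colour. The left panel rises with r = 0.888, and the right panel falls with r = -0.523, where the lowest point is the duodenum library of sham weight-matched mouse 27.

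In the duodenum of mouse 27 the 9 genes took 14.04% of all duodenal counts of these genes, while the library held 8.391% of all duodenal counts. Its library size after TMM scaling was 0.616 of its total counts, the lowest ratio of the 16, and after this scaling its share of the duodenal total was 4.999%, so that CPM values of this library are higher than its counts alone would give. In its ileum the 9 genes took 13.7% of their counts, with 6.21% of the total counts. The ileum library did not stand apart in EEC genes, with 42740 CPM beside an ileal median of 42520 CPM, nor in enterocyte genes (5043 beside 7163 CPM). Its macrophage genes were the highest of 16 (16.9 beside a median of 6.49 CPM) and its mast cell genes the third (73.5 beside 58.4 CPM). Its lymphocyte genes were the 12th (1.56 beside 2.84 CPM). In the duodenum of this mouse, macrophage genes were the 7th of 16 (7.66 CPM) and mast cell genes the 15th (29.5 CPM). The part of these cell types in the tuft cell genes of this mouse was not tested. The sum of the 9 genes was 61.9 CPM in its ileum, the highest of 16 ileum libraries, beside a median of 30.6 CPM. In the colon of this mouse they summed to 58.0 CPM, the third of 16, beside a median of 45.8 CPM.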

How the data were processed

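RNA from EYFP-positive cells was made into libraries with the SMARTer stranded pico kit from 2 ng and sequenced as single 50-base reads. The authors aligned reads to GRCm38 with STAR 2.5.1 and deposited 1 table of whole-number read counts per gene, without normalization; the counter's strand setting is not given in the sources used here. Coordinates and exon lengths are from GENCODE M21 on the same build. The human samples and peptide data of the study were not analysed here.

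Counts were filtered (filterByExpr), scaled by TMM and tested with edgeR 4.0.16 under R 4.3.3, in 1 robust quasi-likelihood fit of 9 group means, with Benjamini-Hochberg adjustment over all genes at 0.05. The SE of a log2 fold change is its size divided by the square root of F. Alternatives used DESeq2 1.42.0 and limma 3.58.1. Scripts were tested on simulated data.

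The genes, the marker lists and the tests were chosen with earlier results of these data known. Named in the text are the 9 genes, up to 4 other tuft genes per comparison and direction of lowest p, the sort markers, and the 10 genes most like the 9. A gene that this rule names is not reported here. Libraries outside this rule, such as that of mouse 27, and the mast cell genes, were named after their values were seen.

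Mouse numbers pair the libraries of an animal across regions. Correlations of their deviations from the group means were above 0.1 in 8 of 15 mice for ileum and duodenum, 7 of 15 for colon and duodenum and 7 of 16 for colon and ileum, with medians of 0.114, 0.0971 and 0.0983. Surgery groups hold different mice. No 2 libraries of a group agreed within sampling noise (lowest chi-square per degree of freedom 8.78 over 105 pairs). Limits from counts of 0 cover counting error only.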

Additional observations from a re-analysis of the deposited data

Results flagged for a closer look

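Within the 9 groups, the level of each gene was screened with Dixon's ratio for single libraries lying far off. Of 76 groups with any spread, 11 had one. About 1 in 20 would be flagged if the values had a normal spread, which CPM from low counts need not have. In the duodenum of sham weight-matched mouse 27, Dclk1 was at 28.8 CPM, Trpm5 at 21.97 CPM and Sh2d6 at 4.05 CPM, beside 6.32, 4.996 and 1.10 CPM in the next library. In the duodenum of VSG mouse 28, Trpm5 was at 13 CPM, beside 5.84 CPM in the next library, and Il25 at 0.126 CPM, from 1 count. Il25 was at 0.256 CPM in the ileum and 0.245 CPM in the colon of sham ad libitum mouse 13, and at 0.208 CPM in the colon of VSG mouse 18, each from 2 counts where all other libraries of the group had 0. Gnat3 was at 0.1498 CPM, from 1 count, in the duodenum of VSG mouse 22. Ptgs1 was at 2.62 CPM in the ileum of sham ad libitum mouse 24, beside 0.988 CPM in the next library, and Sh2d6 at 2.81 CPM in the colon of sham ad libitum mouse 19, beside 1.36 CPM. The 5 values of Il25 and Gnat3 come from a single library with 1 or 2 counts among libraries at 0, where the ratio is 1 by construction, so the rate of 1 in 20 does not apply to them. The values of Dclk1, Trpm5 and Sh2d6 in mouse 27 come from the same library and are not independent. No conclusion is drawn from the number flagged.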

How the results depend on the processing

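The count of tuft cell genes past the threshold between surgery groups, and in the interaction, was 0 under all alternatives. Between ileum and duodenum it was 1 and became 2 under either replicate block, and 4 without the duodenum library of mouse 27 or, chosen after seeing the data, those of mice 13 and 27. Leaving out each mouse gave 1 to 3. Between colon and duodenum it was 6 and became 1 with the second index as covariate. Leaving out each mouse gave 5 to 7. Between colon and ileum it was 2 and became 1 with that covariate, and 1 to 2 on leaving out each mouse. The replicate block in limma voom also added Sh2d6 between colon and duodenum. The cause of these changes was not tested. The values below are log2 fold changes of single genes, none of them past the threshold.

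With the second index as covariate, the sign turned between ileum and duodenum for Dclk1 (-0.434), Trpm5 (-0.334), Pou2f3 (-1.02), Alox5ap (-0.348) and Ptgs1 (-0.321), between colon and duodenum for Trpm5 (-0.146), Pou2f3 (-1.43) and Sh2d6 (-0.769), between colon and ileum for Pou2f3 (-0.414) and Sh2d6 (-0.932), between VSG and sham ad libitum for Pou2f3 (0.217) and Alox5ap (0.166), between VSG and sham weight-matched for Pou2f3 (0.266) and Ptgs1 (0.0887). Without the ileum and colon libraries of mouse 12, the sign turned between VSG and sham ad libitum for Dclk1 (-0.00147) and Sh2d6 (0.0599), between the sham groups for Alox5ap (-0.0124). Under the replicate block in limma voom, the sign turned between VSG and sham ad libitum for Alox5ap (0.0688), between VSG and sham weight-matched for Dclk1 (0.191), Pou2f3 (0.241) and Ptgs1 (0.13), between the sham groups for Dclk1 (-0.183), Trpm5 (-0.194) and Ptgs1 (-0.0982). Without the duodenum library of mouse 27, the sign turned between VSG and sham weight-matched for Dclk1 (0.129), Pou2f3 (0.315), Alox5ap (0.0375) and Ptgs1 (0.0408), between the sham groups for Dclk1 (-0.114), Trpm5 (-0.105) and Alox5ap (-0.0507). Without those of mice 13 and 27, the sign turned between VSG and sham weight-matched for Dclk1 (0.135), Pou2f3 (0.318), Alox5ap (0.0426) and Ptgs1 (0.0482), between the sham groups for Dclk1 (-0.0465), Trpm5 (-0.0246) and Alox5ap (-0.0621). With DESeq2 size factors, the sign turned between VSG and sham weight-matched for Trpm5 (-0.00988). With DESeq2, the sign turned between VSG and sham weight-matched for Trpm5 (-0.00771). On leaving out each mouse, the sign turned between colon and ileum for Sh2d6 (-0.198 to 0.416), between VSG and sham ad libitum for Dclk1 (-0.0654 to 0.0949), Trpm5 (-0.0259 to 0.314), Pou2f3 (-0.608 to 0.0571), Alox5ap (-0.164 to 0.247) and Sh2d6 (-0.365 to 0.239), between VSG and sham weight-matched for Dclk1 (-0.41 to 0.382), Trpm5 (-0.213 to 0.525), Pou2f3 (-0.469 to 0.594), Alox5ap (-0.249 to 0.0328) and Ptgs1 (-0.292 to 0.407), between the sham groups for Dclk1 (-0.367 to 0.427), Trpm5 (-0.339 to 0.337), Pou2f3 (-0.933 to 0.248), Alox5ap (-0.0441 to 0.341) and Ptgs1 (-0.138 to 0.565).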
